A study of Homo sapiens with 5 samples.

Results

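The genes described here are 10 carriers of amino acids and related nutrients, SLC43A1, SLC43A2, SLC43A3, SLC7A1, SLC7A5, SLC7A8, SLC7A11, SLC3A2, SLC1A5 and SLC38A2. They were chosen by name, and each name matched 1 of the 64837 entries of the count tables. The libraries came from NCI-H209, a human small-cell lung cancer (SCLC) line that grows in suspension clusters. There were 3 control libraries from untreated NCI-H209 cells and 2 co-cultured libraries from cells that had shared medium for 24 h with human brain microvascular endothelial cells (HBMECs), which sat on the porous membrane of a Transwell insert above them. The tumor cells were kept in RPMI-1640 with fetal bovine serum and HBMECs in the same medium with added Nu-serum, and total RNA depleted of ribosomal RNA was made into directional libraries. The comparison asks how soluble signals and shared medium from brain endothelium changed the tumor cells. It rests on 1 cell line, whether control wells held an empty insert was not given in the sources used here, and the labels do not say that the replicates were separate cultures, so the p-values measure only the spread between these libraries.

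Amino acids cross the plasma membrane by carriers of several kinds. SLC3A2 is a heavy chain (4F2hc, CD98) that has to pair with a light chain to bring it to the surface. Its light chains include SLC7A5 (LAT1), which exchanges large neutral amino acids such as leucine, SLC7A8 (LAT2), a broader neutral exchanger, and SLC7A11 (xCT), which takes up cystine in exchange for glutamate. SLC7A1 (CAT1) carries arginine and lysine, SLC1A5 (ASCT2) exchanges glutamine and other neutral amino acids, and SLC38A2 (SNAT2) takes up neutral amino acids together with sodium. SLC43A1 (LAT3) and SLC43A2 (LAT4) are uniporters of branched-chain and other large neutral amino acids, whereas their relative SLC43A3 is known as a purine nucleobase carrier. Many tumors express SLC7A5, SLC3A2, SLC1A5 and SLC7A11 at high levels, and several of these genes are transcribed when amino acids run short, through the factor ATF4.

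ATF4 binds composite sites of the form TGATGNAA, and MYC binds the E-box CACGTG, so the start sites of the genes were read for both. RefSeq windows (GRCh38.p14) from 250 bases before to 50 bases after a transcription start were found for 8 of the 10 genes, 18 windows in all. The genes without a window in the table were SLC7A11 and SLC43A3. TGATGNAA was searched on both strands and lay in 3 of the 18 windows, compared with 3.62% of all 35116 windows. The matches, in SLC3A2, SLC7A1 and SLC1A5, are shown to give the sequence around them, and the capitals mark the motif. SLC7A5, SLC38A2 and SLC43A1, which also rose, held no TGATGNAA in their windows, and any link between a match and a change was not tested. Each match is read along the strand of its gene.
SLC3A2, chr11:62881719-62881748, plus strand: gtaatgtgcaggactccTTACATCAgctcc
SLC7A1, chr13:29595663-29595692, minus strand: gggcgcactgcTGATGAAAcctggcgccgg
SLC1A5, chr19:46784893-46784922, minus strand: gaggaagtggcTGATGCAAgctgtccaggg

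The SLC3A2 match is on the strand opposite to the gene, 37 bases after a start (62881699) that lies inside the gene. In SLC7A1 it began 7 bases after the start. The SLC1A5 match lay 97 bases before a start inside the gene. CACGTG, which reads the same on both strands, lay in 4 of the 18 windows, compared with 7.26% of all windows.
SLC43A1, chr11:57515797-57515826, minus strand: cagcgggcgagtCACGTGcgcgtgaaactc
SLC7A8, chr14:23154505-23154534, minus strand: cacaattagaaaCACGTGctcagttccttc
SLC7A5, chr16:87869620-87869649, minus strand: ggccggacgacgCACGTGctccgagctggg
SLC1A5, chr19:46787326-46787355, minus strand: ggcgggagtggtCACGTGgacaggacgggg

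No match of one motif overlapped a match of the other. The E-box matches began 50 to 130 bases before a start. That start was at 57515702 for SLC43A1, at 23154393 for SLC7A8 and at 46787293 for SLC1A5, each inside the annotated gene. A match is a run of letters and was not shown to be bound in these cells. SLC7A8, one of the E-box genes, had at most 6 counts in any library.

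Levels below are in CPM, which are counts scaled to a common library size and adjusted by the trimmed mean of M values (TMM), with mean ± SD over 3 control and 2 co-cultured libraries. Libraries held 17317045 to 19157348 counts in the control group and 15457071 and 18918787 after co-culture, so 3 counts corresponded to 0.154 to 0.198 CPM. The share of reads that did not map ran from 8.13% to 8.48% in control and was higher, at 15.9% and 16.8%, after co-culture. Reads assigned to no gene made up 47.3%, 51.2% and 49.6% in control and less, 40.1% and 40.8%, after co-culture. The part of these differences in the results was not tested. In bulk RNA, a changed number of cells of some type and a changed amount of RNA per cell cannot be told apart.

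Of the 10 transporters, 8 passed the filter on low counts and 7 of these rose in the co-cultured cells (quasi-likelihood test of edgeR, p adjusted by Benjamini-Hochberg over 20360 genes and under 0.05). None of the 8 had a negative log2 fold change in edgeR or in DESeq2. Over all genes tested, 33.4% were called, of which those that rose made up 18.4% of the genes tested and those that fell 15.0%. The median log2 fold change of the 8 tested transporters was 0.89, compared with -0.03 over all genes tested. The members and the lists below were chosen with earlier results of these data known, so such contrasts are descriptive. SLC43A3 did not pass the test, and SLC43A2 and SLC7A8 had too few counts for it. Together the 10 genes took 0.262%, 0.201% and 0.196% of all counts on genes in the control libraries. Their share was larger in both co-cultured libraries, at 0.390% and 0.417%.

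**Figure D1:**
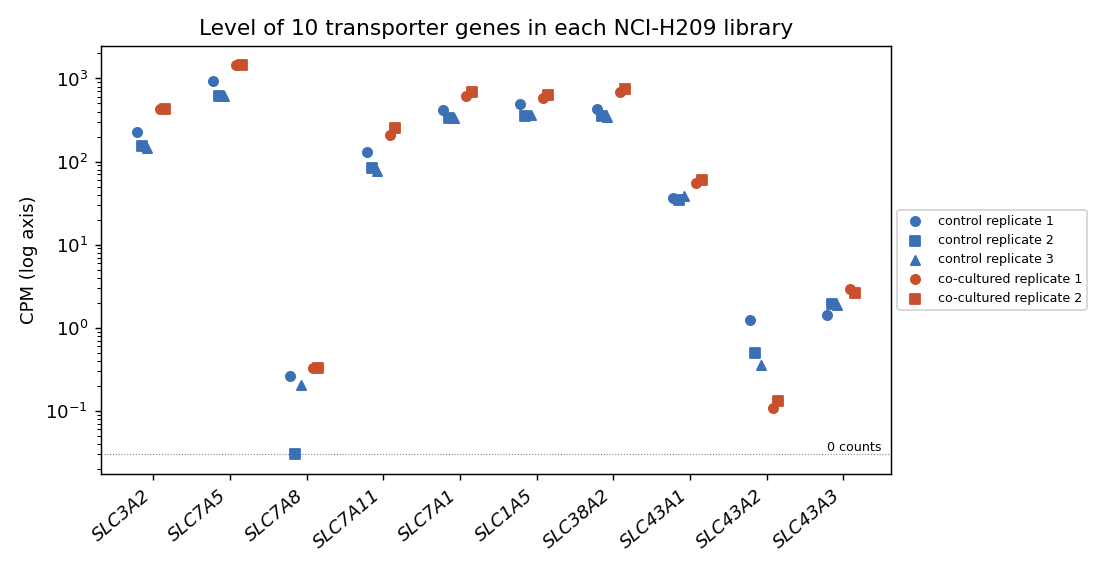
Level of each of the 10 transporters in each library, in CPM on a log axis. Circles, squares and triangles are replicates 1, 2 and 3, blue for control and orange for co-cultured cells. A gene with 0 counts is drawn on the dotted line. SLC7A5 is highest in every library, and SLC7A8 and SLC43A2 are near or below 1 CPM in all of them.

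SLC3A2, the shared heavy chain, had the highest log2 fold change of the 7, within its standard error of that of SLC7A11. Its gene lies on chromosome 11 (62856102 to 62888875, plus strand, GRCh38, GENCODE release 29). Its level was 227, 152 and 146 CPM in the control libraries and 435 CPM in both co-cultured libraries. Every co-cultured value lay well above the highest control value. The mean went from 175 ± 45.2 to 435 ± 0.00346 CPM, a log2 fold change of 1.31 (SE 0.17, adjusted p = 0.000526, edgeR), or 2.48-fold. The nearly identical co-cultured values come from 2 libraries, which give little information on the spread.

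SLC7A5, the LAT1 light chain, was the most abundant of the 10 genes. It lies on chromosome 16 (87830023 to 87869488, minus strand). The control libraries held 925, 609.8 and 616 CPM and the co-cultured libraries 1437 and 1435 CPM. The groups did not overlap, and control replicate 1 stood well above the other controls. The mean rose from 717 ± 179.9 to 1436 ± 1.47 CPM, which is 2.0-fold (log2 fold change 1.0, SE 0.17, adjusted p = 0.00197, edgeR).

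The cystine carrier SLC7A11, on chromosome 4 (138164097 to 138242349, minus strand), is the xCT light chain. It was measured at 132, 82.8 and 76.1 CPM in control and at 208 and 251 CPM in co-cultured cells. Here too the lowest co-cultured library exceeded the highest control library. The mean rose from 97.0 ± 30.6 to 229 ± 30.4 CPM, a log2 fold change of 1.24 (SE 0.20, adjusted p = 0.00190, edgeR), or 2.36-fold.

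The LAT2 light chain SLC7A8, on chromosome 14 (23125295 to 23183674, minus strand), was near the limit of detection. It had 5, 0 and 4 counts in control, against 6 and 5 counts after co-culture, or 0.266, 0 and 0.205 CPM against 0.328 and 0.330 CPM. The co-cultured over control ratio of the summed counts, 11 against 9 and scaled for depth, was 2.06, with a 95% exact binomial interval of 0.777 to 5.63 that covers counting error only. A difference in SLC7A8 was not detectable at this depth. Loss of reads that map to more than 1 place was not checked for SLC7A8 or SLC43A2. Of the LAT light chains, SLC7A5 had far more counts than SLC7A8 in every library.

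Because the light chains need the heavy chain, their levels were set against SLC3A2 per kilobase of exon. The length was the union of all annotated exons and not that of the transcripts expressed, so different genes compare only roughly. A change of a ratio between libraries does not depend on this length. The SLC7A5 level was 4.44, 4.38 and 4.59 times that of SLC3A2 in the control libraries, against 3.61 and 3.60 times after co-culture. The ratio was therefore lower in both co-cultured libraries, with means of 4.47 ± 0.111 and 3.60 ± 0.00371. A two-sided exact permutation test gave p = 0.1, which is the smallest p that the 10 regroupings of these 5 libraries allow. The SLC7A11 level relative to SLC3A2 was 0.312, 0.292 and 0.279 in control, against 0.256 and 0.310 after co-culture, so that the ranges crossed (exact permutation p = 0.6). SLC3A2 made up 17.7% ± 0.273 of the summed counts of SLC3A2, SLC7A5, SLC7A8 and SLC7A11 in control and 20.7% ± 0.285 in co-cultured cells, a difference of 2.98 percentage points (exact permutation p = 0.1, again the smallest possible). SLC3A2, SLC7A5 and SLC7A11 thus all rose, and with 5 libraries a shift in their proportions could not pass a threshold of 0.05 in this test.

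Outside the SLC43 family, the carriers that work without a heavy chain also rose. SLC7A1, the arginine and lysine carrier on chromosome 13 (29509410 to 29595688, minus strand), was at 412, 333 and 338 CPM in control and at 613 and 689 CPM in co-cultured cells. The groups were separate, with means of 361 ± 44.3 and 651 ± 53.8 CPM. Its log2 fold change was 0.85 (SE 0.11, adjusted p = 0.000574, edgeR), or 1.8-fold.

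SLC38A2, the sodium-coupled neutral amino acid carrier on chromosome 12 (46358189 to 46372867, minus strand), had 434, 355 and 340.5 CPM in control and 695 and 749.5 CPM in co-cultured libraries. Control replicate 1 was again the highest control, but remained far below both co-cultured libraries. From 376 ± 50.6 to 722 ± 38.8 CPM, the log2 fold change was 0.94 (SE 0.11, adjusted p = 0.000373, edgeR), or 1.92-fold.

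SLC1A5, the glutamine exchanger on chromosome 19 (46774883 to 46788594, minus strand), changed least among the genes that rose. It was measured at 498, 358 and 359 CPM in control and at 589 and 636 CPM after co-culture. The ranges were separate, but the gap between control replicate 1 and the lower co-cultured library was small. The mean went from 405 ± 80.6 to 612 ± 33.3 CPM, a log2 fold change of 0.60 (SE 0.14, adjusted p = 0.0108, edgeR), or 1.51-fold. This call was lost without co-cultured replicate 1 (log2 fold change 0.66, adjusted p = 0.0582) and without co-cultured replicate 2 (0.54, adjusted p = 0.107).

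**Figure D2:**
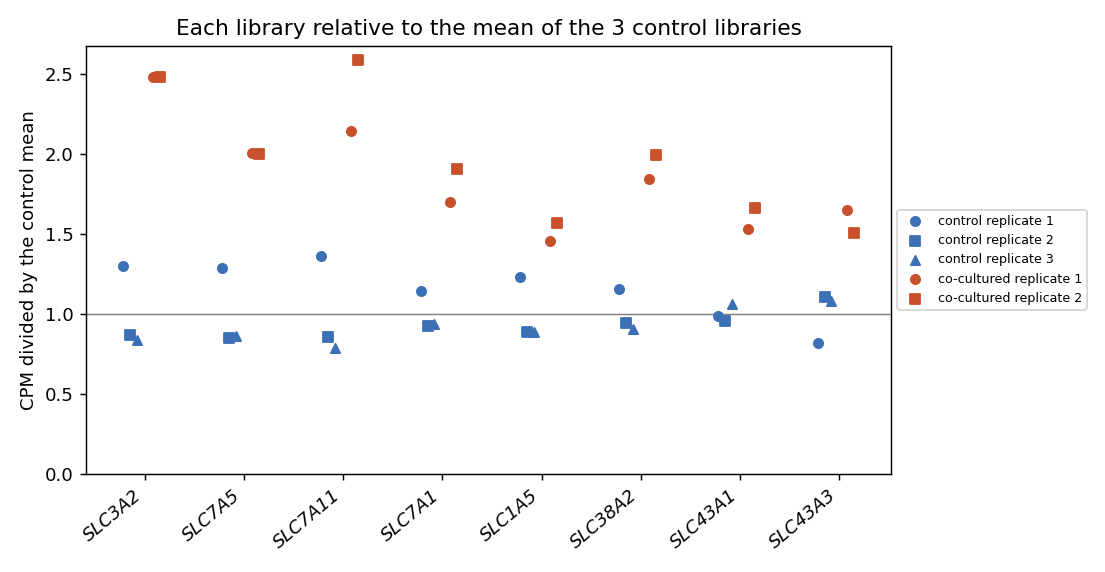
CPM of each library divided by the mean of the 3 control libraries, for the 8 transporters tested (linear axis from 0). Blue symbols are control and orange symbols co-cultured libraries, and the grey line marks 1. Co-cultured values lie above all control values for each gene, from 1.45 times the control mean in SLC1A5 to 2.59 times in SLC7A11, and control replicate 1 is the highest control for 6 of the 8.

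The 3 SLC43 genes differed widely in level, and of these SLC43A2 alone had lower values after co-culture. SLC43A1, the LAT3 uniporter on chromosome 11 (57484534 to 57515786, minus strand), was at 35.9, 34.8 and 38.6 CPM in control and at 55.7 and 60.6 CPM in co-cultured cells. The control libraries lay close together for this gene, and both co-cultured libraries were clearly above them. The mean rose 1.59-fold, from 36.4 ± 1.93 to 58.1 ± 3.45 CPM (log2 fold change 0.67, SE 0.09, adjusted p = 0.000605, edgeR).

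SLC43A3, on the same chromosome (57406954 to 57427580, minus strand), was expressed at a low level. Control libraries held 27, 35 and 37 counts of it, and co-cultured libraries 53 and 40, which is 1.44, 1.94 and 1.89 CPM against 2.90 and 2.64 CPM. The values did not overlap, and 29.4% of all genes tested likewise had both co-cultured values above all 3 controls. The log2 fold change of 0.66 (SE 0.25) was like that of SLC43A1, but its adjusted p of 0.0721 in edgeR did not pass the threshold (unadjusted p = 0.0274). When counts were taken without regard to strand, the log2 fold change was 0.71 with an adjusted p of 0.0498.

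SLC43A2, the LAT4 uniporter on chromosome 17 (1569267 to 1628886, minus strand), was at very low counts. The control libraries held 23, 9 and 7 counts and the co-cultured libraries 2 and 2. In CPM this is 1.22, 0.498 and 0.358 against 0.109 and 0.132. Both co-cultured libraries were below the limit of 3 counts, and control replicate 1 alone gave 23 of the 39 control counts. On the opposite strand, SLC43A2 had at most 1 count in a control library, and co-cultured replicate 2 had 2 counts there, as many as on its own strand.

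The depth therefore limits what can be said of SLC43A2. The gene did not pass the filter on low counts and has no test in the main comparison. Its summed counts, 39 against 4, gave a control over co-cultured ratio of 5.78 after scaling for depth, with a 95% exact binomial interval of 2.08 to 22.3 that covers counting error and not the spread between cultures. Without control replicate 1, the counts were 16 against 4 and the ratio 3.56, with an interval of 1.15 to 14.6. When every gene with a count in any library was kept (36866 genes), edgeR gave a log2 fold change of -2.46 (SE 0.71, adjusted p = 0.00383). That edgeR fit gave a far smaller adjusted p for SLC3A2 too, 9.05e-42 against 0.000526 in the main comparison. Without co-cultured replicate 1 or 2, SLC43A2 passed the filter but was not called, with log2 fold changes of -2.32 and -2.59. Each of these rests on 1 co-cultured library. With counts taken without regard to strand, the log2 fold change of SLC43A2 was -1.89 with an adjusted p of 0.0856. The size of the difference was known only within a wide range, and the call depended on the filter and the counting.

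**Figure D3:**
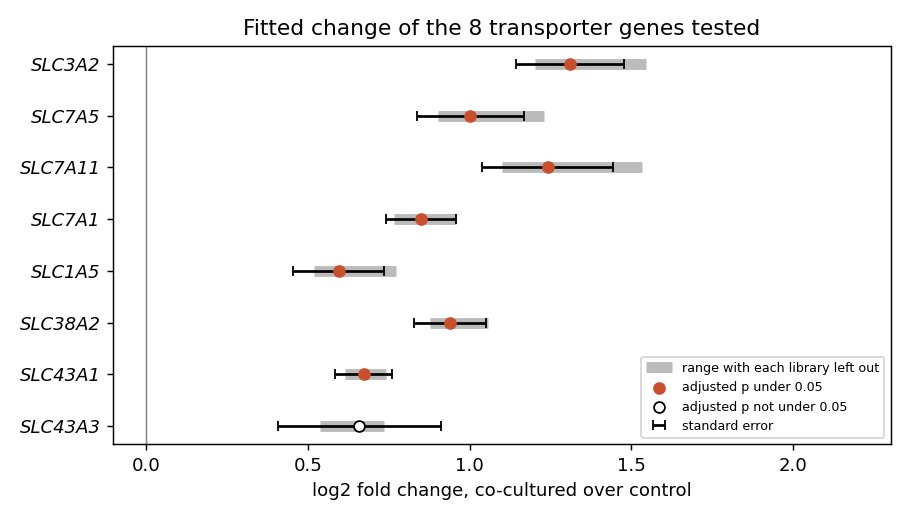
Log2 ratio of co-cultured to control cells for the 8 transporters tested. Points are edgeR estimates, filled for adjusted p under 0.05, black bars are ± 1 standard error and grey bars span the estimates with each of the 5 libraries left out in turn. All 8 estimates and their ranges are above 0, and SLC43A3 is the open point.

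The study called genes differentially expressed by an absolute fold change over 1 and p under 0.05, read here as a log2 fold change and an unadjusted p. By this rule SLC3A2, SLC7A11 and SLC7A5 were upregulated. Over all genes, 5.44% met this rule in the upward direction. SLC7A5 met it by a margin too small to see at the precision given above, and SLC38A2 did not meet it although its log2 fold change lay within 1 standard error of that of SLC7A5.

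Per kilobase of exon, the transporters spanned a very wide range of levels in control cells. The order depends on the annotated exon length, which can differ from that of the transcripts expressed. The order from the top was SLC7A5 (151 ± 37.9 CPM per kilobase), SLC1A5 (122 ± 24.2), SLC38A2 (57.0 ± 7.66), SLC7A1 (46.9 ± 5.75), SLC3A2 (33.9 ± 8.73), SLC43A1 (10.3 ± 0.547), SLC7A11 (10.1 ± 3.17), SLC43A3 (0.389 ± 0.0614), SLC43A2 (0.0653 ± 0.0438) and SLC7A8 (0.0262 ± 0.0232). Neighbours that overlapped within their spread were SLC7A5 and SLC1A5, SLC38A2 and SLC7A1, SLC7A1 and SLC3A2, SLC43A1 and SLC7A11, and SLC43A2 and SLC7A8. Within each control library, SLC7A5 was above SLC1A5, SLC38A2 above SLC7A1 and SLC7A1 above SLC3A2. The order of SLC43A1 and SLC7A11 was reversed in control replicate 1 (10.2 and 13.7). That of SLC43A2 and SLC7A8 was reversed in control replicate 3 (0.0338 and 0.0342). In co-cultured cells SLC7A5 stood clear at 303 ± 0.309 CPM per kilobase against 184 ± 10.0 for SLC1A5. SLC3A2 reached the level of SLC7A1 there, at 84.0 ± 0.000669 and 84.6 ± 6.99, and SLC7A11 at 23.8 ± 3.15 was above SLC43A1 at 16.5 ± 0.977. SLC43A2 was last, at 0.0114 ± 0.00152 CPM per kilobase.

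Control replicate 1 was the highest control for 6 of the 7 transporters that rose, compared with 41.7% of all genes tested. Its level was 1.66 times the mean of the other 2 controls for SLC7A11, 1.52 times for SLC3A2 and 1.51 times for SLC7A5, but 0.980 times for SLC43A1. This library lies toward the co-cultured libraries for these genes, and without it the log2 fold changes of SLC3A2 and SLC7A11 were 1.55 and 1.53. Each of the 7 calls held without it. All but that of SLC1A5 held without any other single library as well.

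Reads from neighbouring and related entries were few beside those of the members. The antisense gene SLC7A11-AS1 had no count in any control library, against 3 and 1 counts after co-culture. The pseudogene SLC7A5P1 had 34, 59 and 34 counts in control, against 61 and 49 after co-culture, and SLC7A5P2, counted under an entry without a place in GENCODE 29, had 32 to 39 counts in every library. Reads that mapped to more than 1 place, 7.05% to 7.75% of all reads, were given to no gene, so any SLC7A5 reads shared with these copies are missing from its level. AP000781.2, which shares exons with SLC43A3 on the same strand, had at most 1 count in any library, and counting in STAR leaves out reads that lie in both genes. For 9 of the 10 genes, SLC43A2 aside, reads on the opposite strand were at most 1.26%.

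Other amino acid transporters had a smaller median change. Of 37 further carriers in this list, 20 were tested, 7 rose and 2 fell, with a median log2 fold change of 0.22. As shares of the tested carriers, 35% rose and 10% fell, against 18.4% and 15.0% over all genes tested. The carriers that rose were SLC7A14, SLC1A4, SLC38A1, SLC1A1, SLC6A6, SLC6A9 and SLC6A17. The call of SLC1A1 was lost without co-cultured replicate 1 (adjusted p = 0.0940) and that of SLC6A9 without co-cultured replicate 2 (adjusted p = 0.131). SLC1A4 (ASCT1), which exchanges alanine, serine and cysteine and is the closest relative of SLC1A5, rose from 121 ± 22.4 to 212 ± 5.11 CPM (log2 fold change 0.80, adjusted p = 0.00178, edgeR). SLC7A14, a carrier of the cationic branch with SLC7A1, rose from 9.83 ± 1.57 to 22.8 ± 1.02 CPM (1.21, adjusted p = 0.000420). SLC38A1 (SNAT1), the relative of SLC38A2 and named after its values were seen, rose from 384 ± 89.2 to 735 ± 79.9 CPM (0.94, adjusted p = 0.00244).

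The 2 carriers that fell were SLC16A10 and SLC7A6. SLC16A10 (TAT1) is a uniporter of aromatic amino acids, a task near that of SLC43A1 and SLC43A2, and fell from 34.5 ± 3.67 to 15.7 ± 0.867 CPM (log2 fold change -1.14, adjusted p = 0.000238, edgeR). SLC7A6, another light chain of SLC3A2 that was named after its values were seen, went from 31.2 ± 3.77 to 24.0 ± 0.540 CPM (-0.38, adjusted p = 0.0359), a call that was lost without control replicate 2 and without either co-cultured library (adjusted p = 0.0573, 0.206 and 0.163).

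The lists of lysosomal and mitochondrial carriers showed little common change. Of their tested genes 11.1% and 9.09% rose and 11.1% and 18.2% fell, against 18.4% and 15.0% over all genes. Of 9 lysosomal amino acid transporters, all tested, SLC36A1, a proton-coupled exporter, rose (0.60, adjusted p = 0.00312) and SLC38A9, the arginine sensor of the lysosome, fell (-0.58, adjusted p = 0.00427, but 0.0687 without co-cultured replicate 2). Of 11 tested mitochondrial carriers, the glutamate carrier SLC25A22 rose from 13.2 ± 3.09 to 27.0 ± 0.811 CPM (1.03, adjusted p = 0.00183). SFXN3, a serine carrier, fell (-0.80, adjusted p = 0.00276), and so did SFXN2 (-0.49, adjusted p = 0.00214, but 0.0527 without co-cultured replicate 1).

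Genes of the amino acid response, which ATF4 and its partners transcribe, had the highest median of the lists. Of 30 tested, 24 rose and 1 fell, with a median log2 fold change of 1.20, and 18 met the rule of the study upward. The share that rose was 80%, against 18.4% over all genes tested, of which 5.44% met that rule upward. The 3 with the smallest p were PPP1R15A, which lets translation resume (50.2 ± 3.75 to 142 ± 2.98 CPM, log2 fold change 1.5), the mitochondrial serine enzyme SHMT2 (151 ± 5.14 to 362 ± 8.10 CPM, 1.26) and the stress pseudokinase TRIB3 (103 ± 9.71 to 286 ± 14.9 CPM, 1.47). ATF4 itself was at 482 ± 31.4 CPM in control and 551 ± 17.4 CPM in co-cultured cells and did not pass the test (0.19, adjusted p = 0.112). ASNS, the asparagine synthetase often used as a reporter of this response and named after its values were seen, did not pass either (0.22, adjusted p = 0.299). ATF5, the 1 gene of the list that fell, changed by -0.42 on the log2 scale (adjusted p = 0.00641), a call that was lost without either co-cultured library (adjusted p = 0.0733 and 0.0888).

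The enzymes that load amino acids onto transfer RNA rose in part. The share that rose was 68.4% and the share that fell 5.26%, against 18.4% and 15.0% over all genes tested. Of 19 cytosolic aminoacyl-tRNA synthetases tested, 13 rose and 1 fell (median 0.57), and 8 rose without co-cultured replicate 2. SARS1 (log2 fold change 1.02), TARS1 (0.94) and AARS1 (0.83) had the smallest p, and TARS1 went from 394 ± 21.7 to 757 ± 23.7 CPM. QARS1, the glutamine enzyme and the 1 that fell, went from 32.1 ± 5.55 to 16.3 ± 0.112 CPM (-0.98, adjusted p = 0.00138).

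The list for lysosomal amino acid sensing by mTORC1 had 31 tested genes, of which 6 rose and 5 fell (median 0.02), shares near those over all genes tested. Its counts moved strongly with single libraries. Without control replicate 1 there were 12 that rose and 7 that fell, and without any one of the other 4 libraries 2 or 3 rose and 1 fell. RRAGB and RRAGD, both Rag GTPases that bring mTORC1 to the lysosome, moved in opposite directions (-0.96, adjusted p = 0.000455, and 0.90, adjusted p = 0.000486).

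Among 13 tested genes of glutathione synthesis and cystine use, 6 rose and 1 fell (median 0.09). These shares were 46.2% and 7.69%, against 18.4% and 15.0% over all genes tested. Without co-cultured replicate 1 or 2, 3 and 2 rose. CHAC2, which degrades glutathione, rose by 1.14 on the log2 scale (adjusted p = 0.00143), and NFE2L2, the transcription factor NRF2, rose by 0.53 (adjusted p = 0.00127). GSS, glutathione synthetase, rose by 0.52 (adjusted p = 0.00647, but 0.0898 without co-cultured replicate 2).

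For enzymes of glutamine and branched-chain amino acids, the cargo of SLC1A5 and SLC7A5, 6 of 19 tested rose and 3 fell (median 0.11). These shares were 31.6% and 15.8%, against 18.4% and 15.0% over all genes tested, so the share that fell was near that over all genes. Without control replicate 1, 10 rose and 4 fell, and without co-cultured replicate 1 or 2, 3 and 2 rose and none fell. BCAT1, which takes the amino group from leucine, isoleucine and valine, rose from 91.6 ± 19.8 to 241 ± 30.8 CPM (log2 fold change 1.40, adjusted p = 0.000269, edgeR). BCKDK and GOT2 rose by 0.56 and 0.55 (adjusted p = 0.00269 and 0.00390), and each lost its call without 1 co-cultured library (adjusted p = 0.0532 and 0.0645).

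**Figure D4:**
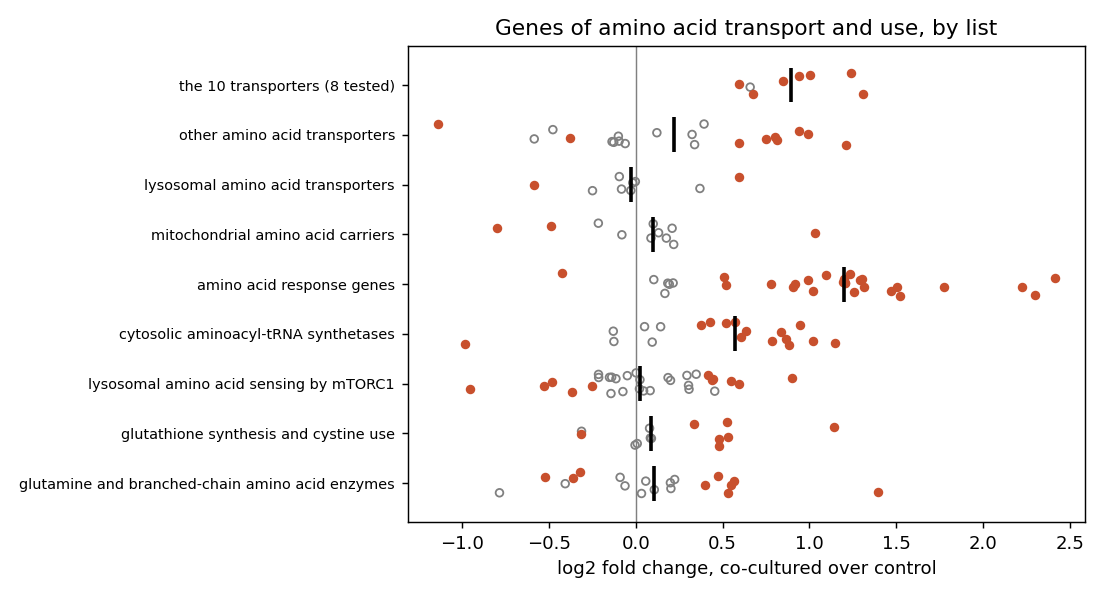
Log2 ratio of co-cultured to control cells for each tested gene of the transporter, amino acid response and enzyme lists. Each point is 1 gene, filled for adjusted p under 0.05 (edgeR), and the black bar is the median of the list. The medians of the 8 tested among the 10 transporters (0.89) and of the tested amino acid response genes (1.20) lie farthest to the right.

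The labelled cell type was checked with markers. The summed level of 14 neuroendocrine SCLC markers was 2672 to 3185 CPM in control and 3715 to 3741 CPM in co-cultured libraries. SYP and SCG2, proteins of secretory vesicles, rose by 0.57 and 0.86 on the log2 scale. Among tested markers 46.2% rose and 7.69% fell, against 18.4% and 15.0% over all genes tested. CHGA had at most 1 count in any library. Reads that map to more than 1 place are not counted, and VARS1, a tRNA synthetase that every cell needs, was also listed at 0 in all libraries, so these low counts do not show that CHGA was absent. Of the 13 tested markers 6 rose and 1 fell, and 3 rose without co-cultured replicate 1 and 4 without co-cultured replicate 2.

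Markers of endothelial cells, the other cell type of the culture, were low in both groups. The 16 markers summed to 9.57 to 19.4 CPM in control and 13.0 to 13.1 CPM in co-cultured libraries, and 7 of them had at most 3 counts in every library. PLVAP and ECSCR were at 0 throughout. Among tested markers 12.5% rose and none fell, against 18.4% and 15.0% over all genes tested. Of the 8 tested, ESAM, a junction protein, rose (0.229 ± 0.0742 to 1.04 ± 0.158 CPM, log2 fold change 2.14, adjusted p = 0.00666), a call that was lost without co-cultured replicate 1 (1.98, adjusted p = 0.0968). The summed endothelial level in co-cultured libraries lay within the range of the control libraries.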

How the data were processed

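RNA-Seq of NCI-H209 cells covered 3 control and 2 co-cultured libraries, grouped by the treatment given in the labels (untreated or conditioned by HBMEC). The treatment protocol text describes co-culture for all 5 libraries alike. Per the submitters' processing notes, tools named are CASAVA 1.8, STAR 2.6.1b and DESeq2, with build GRCh38. The authors deposited read counts per gene in the layout of STAR, and the column for the strand of the directional kit was used (92.3% to 93.1% of counted reads). Of all reads, 30.7% to 33.6% were counted on genes. The deposited comparison table (mean counts, log2 fold changes, standard errors, statistics and p-values of the authors) gave gene names only.

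Genes were kept with filterByExpr, normalized by TMM and compared with the quasi-likelihood test of edgeR 4.0.16 in R 4.3.3, with Benjamini-Hochberg adjustment. The common dispersion of 0.0103 corresponds to a coefficient of variation of 10.2% between replicates. The steps were tested on simulated data. Alternatives were DESeq2 1.42.0, other normalizations and filters, counts of both strands, a replicate block and leaving out each library. Levels per kilobase used the union of exons in GENCODE release 29. Gene lists were written from general knowledge. The members and lists were chosen with earlier results of these data known. Genes named beside the members are the 3 with the smallest p among the called genes of each list, and ATF4, except for 1 gene that is not reported here. Others are marked as named after their values were seen, or complete a count.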

Additional observations from a re-analysis of the deposited data

How the results depend on the processing

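Over 12 alternatives the number of transporters called was 6 to 8 (6 to 7 with a library left out), the number meeting the rule of the study was 2 to 4 (2 to 4 with a library left out), and the log2 fold changes of the 8 tested transporters kept their sign. The other amino acid transporters called numbered 7 to 10 and the amino acid response genes 23 to 28. Over all genes, 6809 were called, and 2734 to 9897 with a library left out. The fewest were 2734 without co-cultured replicate 1 and 3023 without co-cultured replicate 2, which leave that group with 1 library that is assumed to vary like the controls, and the most were 9897 without control replicate 1. Upper-quartile normalization changed the split to 3076 higher and 3929 lower from 3750 and 3059. The median log2 fold change of all genes shifted by at most -0.08 under any setting.

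The numbers of transporters above take both directions together. When every gene with a count in any library was kept, 7 transporters were called higher and 1 lower. In that fit 3 met the rule of the study upward and 1 downward. With counts of both strands, 8 were called higher, and again 3 met the rule upward and 1 downward. The call of SLC1A5 was lost without either co-cultured library (0.66 and 0.54), and SLC43A3 was called with counts of both strands (0.71). Over 10 alternatives the SLC43A2 ratio ranged from 3.55 to 7.23, and the difference in the SLC3A2 share from 2.78 to 3.21 percentage points. With the replicate number as a block, 4824 genes, 7 transporters, 9 other transporters and 24 response genes were called, and 2 transporters met the rule of the study. The deviations of same-numbered libraries correlated at -0.114 and -0.0670, over 2 pairs, and the labels do not say that the numbers mark shared cultures. With 2 co-cultured libraries, depth and replication limit SLC43A2 and SLC7A8 most.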
